A study of Mus musculus with 12 samples.

Results

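Retinoid genes of the mouse heart were followed around Cyp26b1, the gene of a cytochrome P450 enzyme that clears retinoic acid. The set holds 9 genes out of 16514 gene identifiers in the deposited tables, matched by gene symbol. Cyp26b1 was selected on its level in the control-diet hearts, which was lower after pressure overload. The other 8 genes were chosen for their roles in supply, synthesis and reception of retinoic acid, with earlier results of these data known. The values of that comparison, in which 5.34% of 15873 genes were called, are therefore given for the 9 genes as a description, without a test.

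The RNA came from hearts of male C57Bl/6J mice aged 12 weeks. The surgery was transverse aortic constriction (TAC), a band around the aorta that raises the load on the left ventricle, or a sham operation. The branched-chain amino acids (BCAA) leucine, isoleucine and valine were left out of one diet and present in the other, and every group, controls included, also ate 1% propionate. Diets began 4 days before surgery and continued until the hearts were taken 1 week after it. The 4 groups were BCAA-free diet with TAC (BCAA-free TAC), BCAA-free diet with sham surgery (BCAA-free sham), control diet with TAC (control TAC) and control diet with sham surgery (control sham), with 3 libraries each. The labels do not state that each library is a separate mouse, so the p-values measure the spread between libraries, which may be technical.

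Retinol travels in blood bound to retinol-binding protein and is oxidised inside cells first to retinal and then to retinoic acid. Retinoic acid binds nuclear receptors that pair with retinoid X receptors on short repeated DNA elements, and CYP26 enzymes break it down, so its local level depends on both synthesis and clearance. In the mouse heart the epicardium, the outer cell layer, is a known site of retinoic acid synthesis by the product of Aldh1a2.

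The DNA elements that retinoic acid receptors bind are direct repeats of a 6-base half-site, and 3 promoters are shown because they belong to the clearance gene Cyp26b1, the synthesis gene Aldh1a2 and the receptor gene Rarb. Each is the 250 bases before the annotated start, 5′ to 3′ on the gene's own strand, from RefSeq on GRCm38.p6. Capitals mark the half-sites of a direct repeat.

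Cyp26b1, chr6:84593811-84594060, minus strand: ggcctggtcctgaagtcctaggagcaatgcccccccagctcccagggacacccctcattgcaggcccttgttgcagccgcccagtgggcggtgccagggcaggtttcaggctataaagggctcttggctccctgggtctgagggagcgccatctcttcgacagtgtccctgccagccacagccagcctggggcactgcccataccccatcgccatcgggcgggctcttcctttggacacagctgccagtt

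Aldh1a2, chr9:71215539-71215788, plus strand: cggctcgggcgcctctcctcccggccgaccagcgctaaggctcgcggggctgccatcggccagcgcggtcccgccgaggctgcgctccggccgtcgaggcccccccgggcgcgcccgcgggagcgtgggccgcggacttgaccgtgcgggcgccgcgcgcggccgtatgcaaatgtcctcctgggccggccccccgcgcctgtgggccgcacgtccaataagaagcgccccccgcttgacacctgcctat

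Rarb, chr14:16575477-16575726, minus strand: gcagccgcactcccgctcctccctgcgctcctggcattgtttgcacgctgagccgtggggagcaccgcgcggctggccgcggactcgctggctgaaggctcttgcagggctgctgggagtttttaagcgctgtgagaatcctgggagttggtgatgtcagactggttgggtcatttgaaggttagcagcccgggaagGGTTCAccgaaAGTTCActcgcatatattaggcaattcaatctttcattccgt

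The search used any of the half-sites AGGTCA or AGTTCA or GGGTCA or GGTTCA, on both strands, with spacings of 1, 2 or 5 bases, in windows from 250 bases before to 50 bases after each start. Of the 9 genes, 8 matched by symbol, with 18 windows in all. Rdh10 was not matched. One direct repeat was present in those 18 windows, in Rarb, with a spacing of 5 bases and its first base 53 bases before the start. A direct repeat with that spacing was present in 32 of 32851 promoter windows of all genes (0.0974%), and any of the 3 spacings in 0.588%. The windows of Cyp26b1 and Aldh1a2 held no half-site, whereas 43.7% of all windows held at least 1. These matches describe letters in a window and were not tested as binding sites.

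Levels are given as CPM, a gene's reads scaled to a common total of reads assigned to genes in each library, from reads recovered out of the deposited normalised values. Libraries held between 29929161 and 46101244 such reads. The heart label was checked on markers: 8 cardiomyocyte genes summed to between 84056 and 99295 CPM in every library. One library stood apart, control TAC replicate 3, in which 25 hepatocyte genes summed to 479 CPM against 15.6 to 34.8 CPM in the other 11 libraries. Control TAC replicate 2 had 122 CPM in 3 RNA polymerase III transcripts, against 1.59 to 26.3 CPM elsewhere.

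Per length of transcript (RPKM, the CPM divided by the kilobases of annotated exons), Dhrs3 was the most abundant of the 9 genes, with a mean of 24.5 RPKM over all 12 libraries and a range that lay above those of all the others. Its protein returns retinal to retinol. Aldh1a1 (4.31 RPKM), Rara (3.17 RPKM), Aldh1a2 (2.76 RPKM), Cyp26b1 (2.53 RPKM) and Rarb (2.35 RPKM) followed, and each neighbour in that order overlapped the next in range. Rdh10 averaged 1.57 RPKM and Rbp4 1.31 RPKM with overlapping ranges, and Stra6 was lowest at 0.0663 RPKM.

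**Figure D1:**
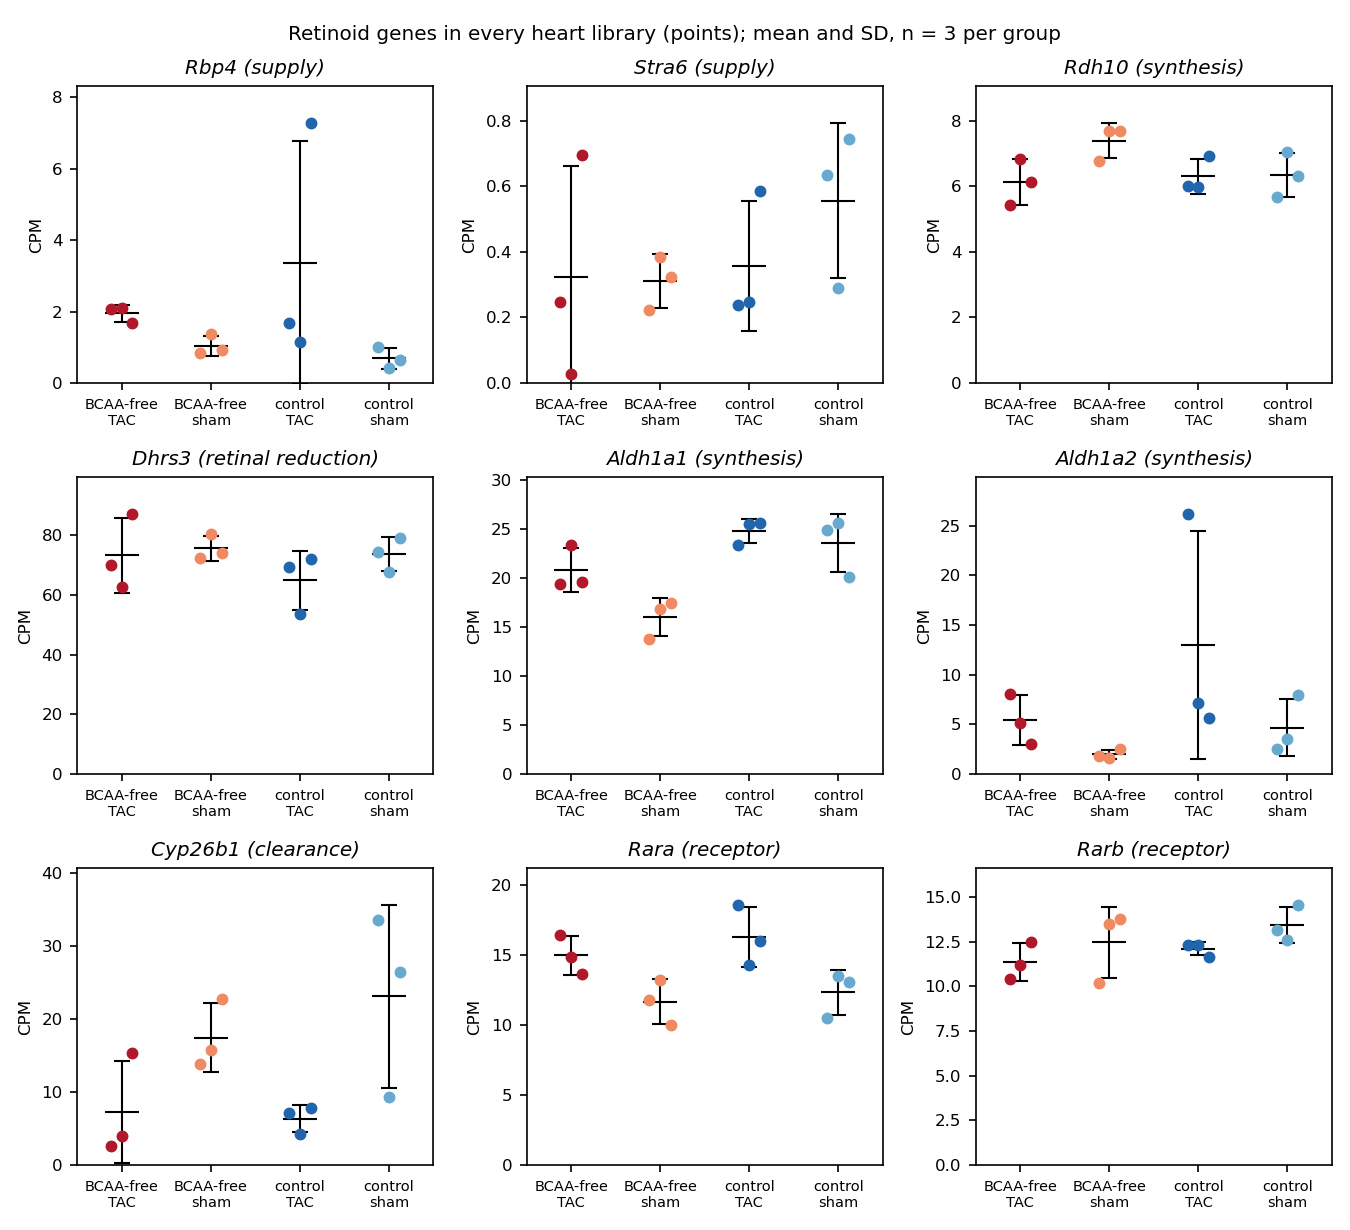
CPM of each of the 9 retinoid genes (y axis, from 0) in the 3 libraries of each group (points), with the mean and SD as bars. Cyp26b1 lies lower after TAC on both diets, with 1 BCAA-free TAC library at 15.3 CPM inside the range of the BCAA-free sham libraries. Aldh1a2 lies higher after TAC on the BCAA-free diet, and its TAC and sham libraries overlap on the control diet.

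Cyp26b1 was the clearance gene the set was built around, on chromosome 6 from 84571414 to 84593908 (GRCm38, GENCODE M21, minus strand). It had 7.12, 4.21 and 7.79 CPM in the control TAC libraries, against 33.6, 9.27 and 26.5 CPM in the control sham libraries. All 3 TAC values lay below all 3 sham values, and the sham values themselves spanned more than the gap between the groups. The log2 difference, on log2(normalised reads + 4), was -1.76 ± 0.42 (limma SE). It ranged from -2.34 to -1.39 when each library was left out in turn.

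On the BCAA-free diet, which shares no library with that comparison, Cyp26b1 had 2.66, 3.94 and 15.3 CPM in the TAC libraries, against 13.8, 15.7 and 22.8 CPM in the sham libraries. Replicates 1 and 2 lay far below the sham range and replicate 3 lay within it. The log2 difference was -1.62 ± 0.48, an estimate 3.06-fold lower, and it missed the threshold of 0.05 (limma, Benjamini-Hochberg adjusted p = 0.0846 over 15936 genes). Without BCAA-free TAC replicate 3 the log2 difference was -2.34 with an adjusted p of 0.000508 by limma. That was the 1 omission of 6 that passed. The other 5 left it uncalled, with a log2 difference as small as -1.11 and an adjusted p as high as 0.264 (limma). With all libraries, edgeR's quasi-likelihood test gave an adjusted p of 0.179 and DESeq2 gave 0.391. In bulk hearts, fewer cells that express a gene and less of its RNA per cell cannot be told apart.

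By diet, the ranges of Cyp26b1 overlapped. The values are described without a test because these comparisons share libraries with the one used to choose the gene. BCAA-free sham libraries averaged 17.4 ± 4.74 CPM and control sham libraries 23.1 ± 12.5 CPM (SD, n = 3 each), a log2 difference of -0.25 ± 0.38. BCAA-free TAC libraries averaged 7.31 ± 6.96 CPM and control TAC libraries 6.37 ± 1.90 CPM (SD, n = 3 each), a log2 difference of -0.10 ± 0.54. The mean CPM and the log2 difference thus had opposite directions in TAC hearts. When each library was left out in turn, the log2 difference ran from -0.83 to 0.12 in sham hearts and from -0.83 to 0.41 in TAC hearts. Neither comparison gave Cyp26b1 a settled direction by diet.

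The synthesis gene Aldh1a2 (chromosome 9, 71215789 to 71296243) differed in the opposite direction. Its enzyme, retinaldehyde dehydrogenase, makes retinoic acid from retinal. It had 8.02, 5.14 and 3.02 CPM in the BCAA-free TAC libraries, against 1.84, 1.62 and 2.51 CPM in the BCAA-free sham libraries. Every TAC value lay above every sham value, and the lowest TAC library was replicate 3, the one highest in Cyp26b1. Aldh1a2 rose 2.49-fold on the log2(normalised reads + 4) scale, a log2 difference of 1.32 ± 0.31 (limma, adjusted p = 0.0387).

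Of the 9 genes tested in TAC on the BCAA-free diet, Aldh1a2 was the 1 called, against 4.32% of all 15936 genes tested. The call was also made by edgeR on recovered reads (adjusted p = 0.0374). It was lost without BCAA-free TAC replicate 2 or without any one of the BCAA-free sham libraries, where limma's adjusted p lay between 0.0833 and 0.18, while the log2 difference stayed between 0.99 and 1.68 over all 6 omissions.

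Aldh1a2 had 26.2, 7.12 and 5.62 CPM in the control TAC libraries, against 2.54, 3.55 and 7.92 CPM in the control sham libraries. Replicate 1 stood far above the other TAC libraries, and the groups overlapped. The log2 difference was 1.20 ± 0.54 with all libraries and 0.55 without control TAC replicate 1.

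Markers of the epicardium and mesothelium were higher in some of the same libraries. Their 11 measured genes summed to 17.1 to 26.5 CPM in the BCAA-free TAC libraries, against 12.4 to 19.6 CPM in the BCAA-free sham libraries. In the control TAC libraries they summed to 30.7, 15.5 and 15.3 CPM, replicate 1 being the highest of all 12, against 12.4 to 15.5 CPM in the control sham libraries, whose tables do not list Muc16 and another marker, Upk1b. In TAC on the BCAA-free diet 1 of the 11, the mesothelial mucin gene Muc16, was called higher, against 2.94% of all genes, and the list's median log2 difference was 1.07 against -0.00 over all genes. Muc16 had 0.549, 0.783 and 0.564 CPM in BCAA-free TAC libraries, against 0.0278, 0.231 and 0.0810 CPM in BCAA-free sham libraries. It had 0.451 CPM in control TAC replicate 1 and 0.0825 and 0.0763 CPM in replicates 2 and 3. Wt1, the defining epicardial transcription factor gene, had 2.39 to 4.56 CPM in BCAA-free TAC and 4.11 to 4.65 CPM in BCAA-free sham libraries. The part of these cells in the Aldh1a2 difference was not tested.

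**Figure D2:**
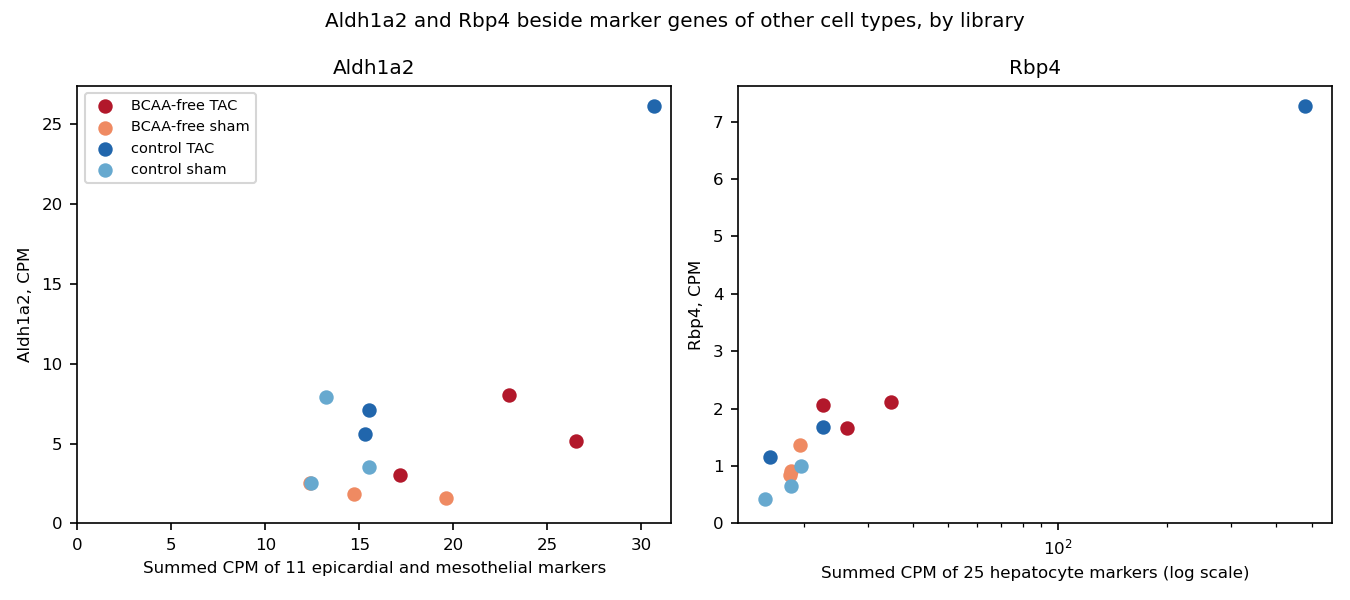
Left, CPM of Aldh1a2 against the summed CPM of 11 epicardial and mesothelial marker genes; right, CPM of Rbp4 against the summed CPM of 25 hepatocyte marker genes on a log axis; each point is a library. Control TAC replicate 1 is highest on both axes on the left (26.2 and 30.7 CPM), and control TAC replicate 3 is highest on both axes on the right (7.28 and 479 CPM).

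The opposite directions of the clearance and synthesis genes were set side by side as a ratio of Cyp26b1 RPKM to Aldh1a2 RPKM within each library, a measure chosen after the values were seen. It was 0.141, 0.324 and 2.15 in BCAA-free TAC libraries, against 3.18, 4.12 and 3.84 in BCAA-free sham libraries. It was 0.115, 0.25 and 0.586 in control TAC libraries, against 5.59, 1.1 and 1.41 in control sham libraries. On the BCAA-free diet the TAC ratios lay below the sham ratios with no overlap, and 2 of the 3 TAC libraries and none of the sham libraries had less Cyp26b1 than Aldh1a2 per length. On the control diet the Cyp26b1 values in the ratio are those that chose the gene, so nothing is read from the order of the groups there. No p is given, since the ratio was chosen with the values known.

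**Figure D3:**
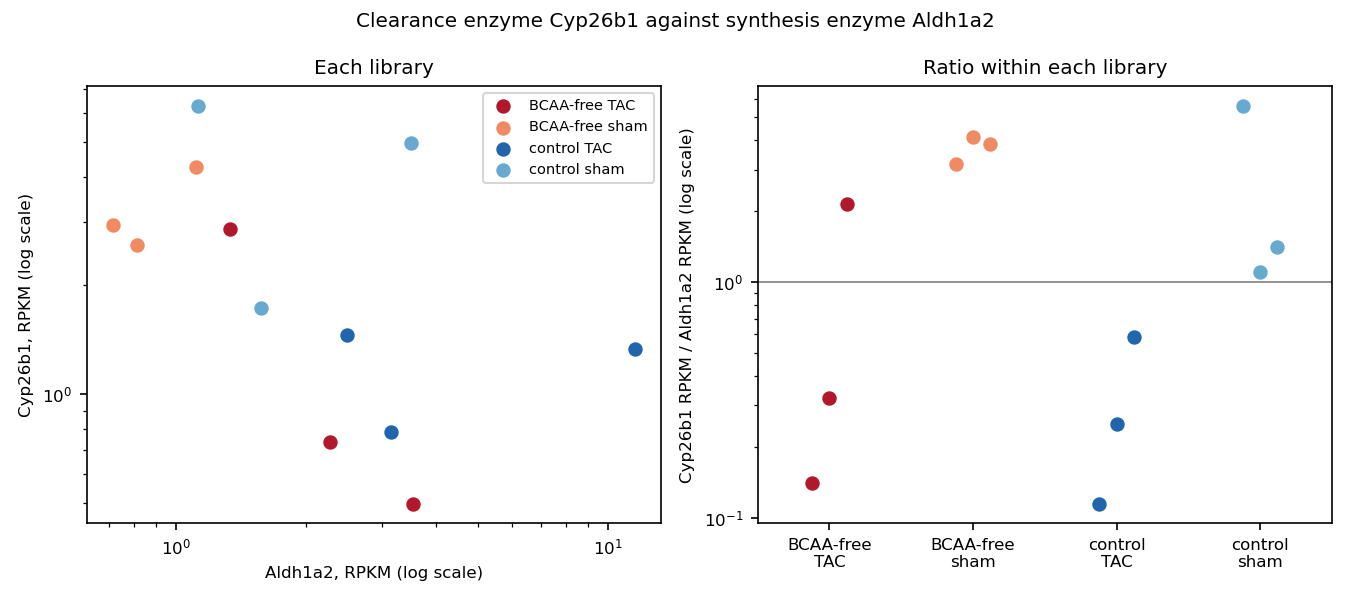
Left, RPKM of Cyp26b1 against RPKM of Aldh1a2 in each library, both axes logarithmic; right, the ratio of the 2 in each library by group on a log axis, with a line at 1. The ratio runs from 0.141 to 2.15 in the BCAA-free TAC libraries and from 3.18 to 4.12 in the BCAA-free sham libraries.

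Aldh1a1 (chromosome 19, 20492715 to 20643465), which encodes another retinal-oxidising dehydrogenase, differed by diet in sham hearts. It had 13.8, 16.9 and 17.4 CPM in the BCAA-free sham libraries, against 24.9, 25.6 and 20.1 CPM in the control sham libraries. All BCAA-free values lay below all control values. Aldh1a1 fell by 0.55 ± 0.11 on the log2 scale, 1.47-fold lower on the BCAA-free diet (limma, adjusted p = 0.0258). Of the 8 genes tested in that comparison Aldh1a1 was the 1 called, against 2.81% of 15596 genes.

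edgeR on recovered reads also called the lower Aldh1a1 level (adjusted p = 0.024). Limma kept it without control sham replicate 3, and lost it without any other single library, with an adjusted p between 0.0576 and 0.118 and log2 differences between -0.63 and -0.46. Fibroblast markers were lower in the same hearts: 8 of 12 were called lower, against 1.76% of all genes, and their sum was 2069 to 2187 CPM in BCAA-free sham libraries against 2418 to 2546 CPM in control sham libraries. None of the 12 was at 0. Of 9 macrophage markers 4 were called lower, and their sum was 211 to 231 CPM in BCAA-free sham libraries against 284 to 295 CPM in control sham libraries. The part of either cell type in the Aldh1a1 difference was not tested. Of 50-base stretches of Aldh1a1 transcripts 3.06% also occur in other genes, most often in Aldh1a7, so a small share of reads cannot be assigned between these genes.

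After TAC on the BCAA-free diet Aldh1a1 stood at 19.4, 23.4 and 19.6 CPM in the TAC libraries, against the BCAA-free sham values above. The groups did not overlap, and the log2 difference of 0.38 ± 0.12 missed the threshold (limma, adjusted p = 0.0923). The authors' deposited adjusted p for it was 0.0461. On the control diet the 2 groups overlapped, at 24.8 ± 1.24 CPM after TAC and 23.5 ± 2.97 CPM after sham (SD, n = 3 each), a log2 difference of 0.02 ± 0.10. The TAC difference on the BCAA-free diet minus that on the control diet was 0.36 ± 0.17 for Aldh1a1 (limma, unadjusted p = 0.0446, adjusted p = 0.473).

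The diet difference of Aldh1a2 did not pass the test in sham or TAC hearts. In sham hearts all BCAA-free values, 1.62 to 2.51 CPM, lay below the control values, 2.54 to 7.92 CPM, with a log2 difference of -1.05 ± 0.34 (limma, adjusted p = 0.128). In TAC hearts the ranges of 3.02 to 8.02 CPM on the BCAA-free diet and 5.62 to 26.2 CPM on the control diet overlapped, with a log2 difference of -0.94 ± 0.52 (limma, adjusted p = 0.36). These diet comparisons share their BCAA-free libraries with TAC on the BCAA-free diet.

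Rbp4 (chromosome 19, 38116629 to 38125281) encodes the retinol carrier of plasma, made mainly in liver. It had 2.06, 2.11 and 1.67 CPM in the BCAA-free TAC libraries, against 0.835, 1.36 and 0.918 CPM in the BCAA-free sham libraries. Every TAC value was above every sham value. The log2 difference of 0.87 ± 0.23 missed the threshold in limma (adjusted p = 0.0596). It passed in 1 of 6 single-library omissions, without BCAA-free TAC replicate 3 (limma, adjusted p = 0.0443). In the other 5 limma's adjusted p reached 0.195. The authors' deposited table gave an adjusted p of 0.0459.

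Rbp4 had 1.69, 1.15 and 7.28 CPM in the control TAC libraries, against 1.00, 0.42 and 0.658 CPM in the control sham libraries. The highest value was in control TAC replicate 3, the library with 170 CPM of the hepatocyte gene Alb and 15.7 CPM of Ttr, which encodes the plasma partner of retinol-binding protein. The log2 difference was 1.67 ± 0.58 with all libraries and 0.90 without replicate 3, and both remaining TAC values stayed above the sham values. In TAC on the BCAA-free diet the hepatocyte markers summed to 22.6 to 34.8 CPM in TAC against 18.3 to 19.6 CPM in sham libraries. Of the 25 markers 5 were tested, and 4 of the 5 had a positive difference, with a median of 0.33. Limma called 0 of them, with a lowest adjusted p of 0.0625. Alb had at most 0.0549 CPM in the TAC libraries. The part of liver transcripts in the Rbp4 difference was not tested on either diet.

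Stra6, which encodes the cell-surface receptor that takes up retinol from retinol-binding protein, was close to the detection limit. It had 0.247, 0.0261 and 0.694 CPM in BCAA-free TAC libraries, the middle value being 1 read, against 0.223, 0.385 and 0.324 CPM in BCAA-free sham libraries. It had 0.237, 0.247 and 0.585 CPM in control TAC libraries, against 0.635, 0.291 and 0.744 CPM in control sham libraries. Its groups overlapped in all 4 comparisons, and at this depth no difference was detectable.

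Rdh10 and Dhrs3, of retinol oxidation and its reversal, did not pass the test in any comparison in which they were tested. Rdh10, which encodes the main retinol-oxidising enzyme of the mouse embryo, averaged 6.14 ± 0.698 CPM in BCAA-free TAC and 7.39 ± 0.539 CPM in BCAA-free sham libraries (SD, n = 3 each), with a log2 difference of -0.26 ± 0.13 (limma, adjusted p = 0.285). It averaged 6.30 ± 0.54 CPM in control TAC and 6.35 ± 0.68 CPM in control sham libraries. Dhrs3 averaged 73.3 ± 12.5 CPM in BCAA-free TAC and 75.6 ± 4.25 CPM in BCAA-free sham libraries, with a log2 difference of -0.05 ± 0.10 (limma, adjusted p = 0.815). It averaged 64.9 ± 9.92 CPM in control TAC and 73.6 ± 5.73 CPM in control sham libraries (SD, n = 3 each), a log2 difference of -0.26 ± 0.11. Both genes overlapped between groups in all 4 comparisons.

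Of the receptors, Rara (chromosome 11, 98927818 to 98974942), the gene of retinoic acid receptor alpha, had higher values after TAC on both diets. It had 16.5, 14.9 and 13.7 CPM in the BCAA-free TAC libraries, against 11.8, 13.2 and 10.05 CPM in the BCAA-free sham libraries. It had 18.6, 14.3 and 16.004 CPM in the control TAC libraries, against 10.5, 13.5 and 13.1 CPM in the control sham libraries. Neither pair of groups overlapped. On the BCAA-free diet the log2 difference was 0.37 ± 0.11 and missed the threshold (limma, adjusted p = 0.095). It passed without BCAA-free TAC replicate 3 (limma, adjusted p = 0.0485). It passed in none of the other 5 single-library omissions, where limma's adjusted p reached 0.287. The described difference on the control diet was 0.33 ± 0.12.

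Rarb (chromosome 14, 16430839 to 16819156), the receptor gene whose promoter held the repeat shown above and a textbook target of retinoic acid, did not pass the test. It averaged 11.4 ± 1.05 CPM in BCAA-free TAC and 12.5 ± 1.996 CPM in BCAA-free sham libraries (SD, n = 3 each), a log2 difference of -0.12 ± 0.13 (limma, adjusted p = 0.657). It averaged 12.1 ± 0.369 CPM in control TAC and 13.4 ± 1.01 CPM in control sham libraries (SD, n = 3 each), a log2 difference of -0.21 ± 0.10, with all TAC values below the sham values. Its annotated exons share 1793 bases with Top2b on the opposite strand, which averaged 65.1 CPM. The sources do not say whether counting used strand, so the Rarb values are uncertain.

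Across the 9 genes, 4 had all BCAA-free TAC libraries above all BCAA-free sham libraries (Rbp4, Aldh1a1, Aldh1a2 and Rara), against 13.3% of the genes tested, and 0 had them all below, against 12.3%. On the control diet 2 lay wholly above (Rbp4 and Rara) and 2 wholly below (Cyp26b1 and Rarb), against 19.4% and 8.86% of genes. That comparison chose Cyp26b1, and nothing is read from its counts. By diet in sham hearts 0 lay wholly above and 2 wholly below (Aldh1a1 and Aldh1a2), against 11.9% and 10.3% of genes, and by diet in TAC hearts 0 did either, against 7.8% and 19.5%.

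Diet in TAC hearts moved none of the 8 genes tested past the threshold in limma, where 3.38% of 16222 genes were called, and none had an unadjusted p under 0.05. edgeR and DESeq2 also called 0 there. The smallest adjusted p was 0.34, for Dhrs3, with a log2 difference of 0.24 ± 0.13.

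The diet-by-surgery difference, TAC response on the BCAA-free diet minus that on the control diet, was past the threshold for 0 of 8 genes in limma, against 0.0451% of 15524 genes. Aldh1a1 was the 1 gene with an unadjusted p under 0.05, and edgeR and DESeq2 called 0. For Aldh1a2 that difference was 0.11 ± 0.72 and for Rara 0.04 ± 0.17 on the log2 scale. With the SE of Aldh1a2 this wide, the test does not show that its responses were alike.

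**Figure D4:**
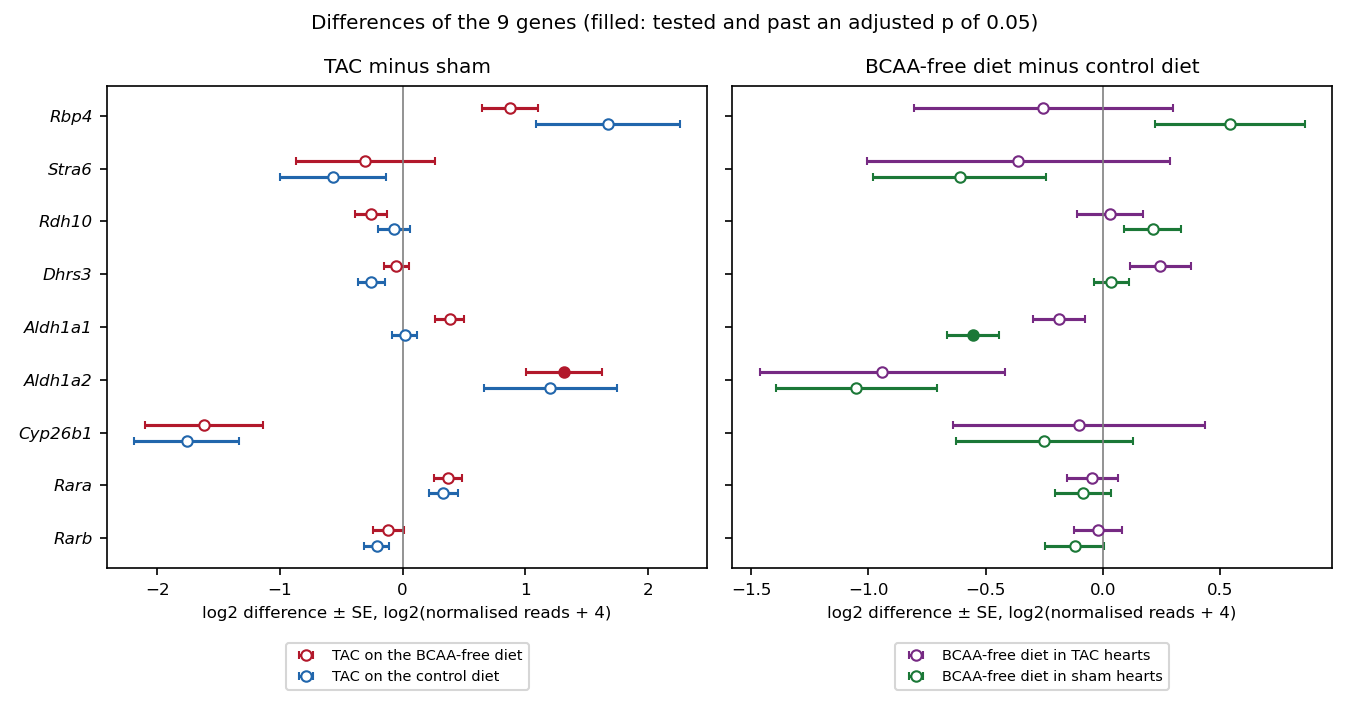
Log2 differences with their SE for the 9 genes, TAC minus sham on each diet (left) and BCAA-free minus control diet in TAC and sham hearts (right), on log2(normalised reads + 4). Filled points, tested and past an adjusted p of 0.05, are Aldh1a2 after TAC on the BCAA-free diet (1.32) and Aldh1a1 by diet in sham hearts (-0.55).

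Other genes of the pathway were taken from lists by role, with the same fits. Counts at an unadjusted p under 0.05 carry no share of all genes beside them, so nothing is read from those counts. In the supply and storage list, 11 of 15 genes were tested in TAC on the BCAA-free diet. Limma and edgeR called 0 of them, DESeq2 called 1, and 3 had an unadjusted p under 0.05. The smallest p, and the call by DESeq2, was that of Rbp7, whose protein binds retinol inside cells, with a log2 difference of 0.43 ± 0.12 (limma, adjusted p = 0.076). The median of the 11 was 0.02 against -0.00 over all genes.

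In TAC on the control diet, 3 of the 11 supply and storage genes tested were called lower and none higher, against 1.94% of 15873 genes lower. Lipe, the gene of hormone-sensitive lipase, which also releases retinol from its esters, fell by 0.49 ± 0.06 on the log2 scale (limma, adjusted p = 0.00539). Ces1d, a carboxylesterase gene, fell by 0.82 ± 0.15 (limma, adjusted p = 0.0181). Cd36, the gene of a fatty acid transporter, fell by 0.39 ± 0.09 (limma, adjusted p = 0.0423), and edgeR did not call it (adjusted p = 0.0506). The Cd36 call was lost without any one control TAC library or without control sham replicate 1 or 3 (limma, adjusted p of 0.0687 to 0.105), and the Ces1d call without control sham replicate 1 or 3 (adjusted p of 0.0639 and 0.0661). The median of the 11 was 0.01, near that of all genes (0.00). DESeq2 also called Ces1f, another carboxylesterase gene, which had 8, 5 and 91 reads in control TAC libraries, the highest being replicate 3 with its hepatocyte markers, against 2, 3 and 6 reads in control sham libraries. Its limma log2 difference was 1.33 ± 0.78 (adjusted p = 0.356).

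The 7 adipocyte markers tested summed to 459 to 511 CPM in control TAC libraries, against 550 to 565 CPM in control sham libraries, and 1 of them, Fabp4, was called lower with a log2 difference of -0.31 (limma, adjusted p = 0.0424). The median of the 7 was 0.41, and 5 had a positive difference. Fabp4 was also 1 of the 10 endothelial markers, of which 2 were called lower there, against 1.94% of all genes. The median of the 10 was -0.15, and 1 had a positive difference. The part of either cell type in the Lipe, Ces1d and Cd36 differences was not tested.

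Among 17 genes of retinol oxidation, retinal reduction and retinol saturation, 8 were tested in TAC on the BCAA-free diet. Limma, edgeR and DESeq2 called 0 of them, with 0 at an unadjusted p under 0.05. The smallest p there was that of the retinol dehydrogenase gene Rdh5, with a log2 difference of -0.26 ± 0.13 (limma, adjusted p = 0.27). On the control diet 2 of 9 were called lower, against 1.94% of all genes. Dhrs4, a dehydrogenase/reductase gene, fell by 0.40 ± 0.08 (limma, adjusted p = 0.0202), and Retsat, the gene of retinol saturase, fell by 0.41 ± 0.09 (limma, adjusted p = 0.036). Limma lost both calls without control sham replicate 1 or 3 (adjusted p of 0.0671 to 0.104), and the Retsat call also without control TAC replicate 1 or 2 (adjusted p of 0.106 and 0.102). Dhrs4 had 69.9, 74.3 and 76.1 CPM in control TAC libraries, against 95.0, 88.5 and 94.2 CPM in control sham libraries.

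Of 7 further genes for retinoic acid synthesis and clearance, Aldh1a3, a further retinal-oxidising dehydrogenase gene, rose in TAC on the control diet by 0.96 ± 0.21 (limma, adjusted p = 0.0319), the 1 call among 4 tested, against 3.4% of all genes called higher. It had 3.37, 2.34 and 2.24 CPM in control TAC libraries, against 1.30, 1.29 and 1.09 CPM in control sham libraries. The groups did not overlap, yet limma lost the call when any single library was left out (adjusted p of 0.0501 to 0.108). On the BCAA-free diet Aldh1a3 had 2.06, 2.04 and 2.75 CPM after TAC, against 1.28, 1.54 and 1.59 CPM after sham. Its log2 difference there was 0.60 ± 0.20 (limma, adjusted p = 0.116), and 0 of 5 genes were called by limma or edgeR, 1 by DESeq2 and 2 at an unadjusted p under 0.05. The gene called by DESeq2 was Cyp1b1, a cytochrome P450 gene, with a limma log2 difference of 0.49 ± 0.13 (adjusted p = 0.0644).

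Among 9 genes of retinoic acid binding and other nuclear receptors, 7 were tested and limma called 0 after TAC on either diet. On the BCAA-free diet 3 had an unadjusted p under 0.05, and DESeq2 called 1 and edgeR 0. The smallest p was that of Nr2f1, an orphan receptor gene, with a log2 difference of -0.62 ± 0.19 (limma, adjusted p = 0.0894). On the control diet 1 had an unadjusted p under 0.05, Rxrg, the gene of retinoid X receptor gamma, at -0.33 ± 0.11 (limma, adjusted p = 0.124), and edgeR and DESeq2 called 0.

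Of 11 receptor coregulators 10 were tested, and limma called 0 after TAC on either diet. On the BCAA-free diet 3 had an unadjusted p under 0.05, DESeq2 called 1 and edgeR 0, with the smallest p for the corepressor gene Ncor1 at -0.25 ± 0.06 (limma, adjusted p = 0.0512). On the control diet 2 had an unadjusted p under 0.05, edgeR and DESeq2 called 0, and Ncor1 again had the smallest p at -0.14 ± 0.06 (limma, adjusted p = 0.203).

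Of 23 genes known to respond to retinoic acid, 16 were tested in TAC on the BCAA-free diet. Tgm2, the gene of transglutaminase 2, was the 1 called and rose, against 2.94% of all genes called higher. Tgm2 had 441, 297 and 314 CPM in BCAA-free TAC libraries, against 229, 232 and 225 CPM in BCAA-free sham libraries, a log2 difference of 0.60 ± 0.12 (limma, adjusted p = 0.0224). It also rose in TAC on the control diet, by 0.50 ± 0.11 (limma, adjusted p = 0.0324). It was the 1 call among 13 tested there, against 3.4% of all genes called higher. The medians of the list were -0.09 on the BCAA-free diet and -0.11 on the control diet, and 5 of 16 and 5 of 13 genes had a positive difference. No gene of the list was called lower by limma.

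The Tgm2 call on the BCAA-free diet was lost without any one of the BCAA-free sham libraries (limma, adjusted p of 0.0968 to 0.116), and that on the control diet was lost without any one of the control sham libraries (adjusted p of 0.0727 to 0.107). Markers of other cells moved in the same hearts. All 9 macrophage markers were called higher in TAC on the BCAA-free diet, against 2.94% of all genes, summing to 373 to 479 CPM after TAC against 211 to 231 CPM after sham. Of 12 fibroblast markers 6 were called higher there, summing to 2439 to 3255 CPM after TAC against 2069 to 2187 CPM after sham. After TAC on the control diet 1 of 9 macrophage markers was called higher, against 3.4% of all genes, summing to 303 to 501 CPM in control TAC against 284 to 295 CPM in control sham libraries. Of the fibroblast markers 3 were called higher and 2 lower there, summing to 2282 to 2903 CPM after TAC against 2418 to 2546 CPM after sham. The part of these cells in the Tgm2 and Rara values was not tested.

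**Figure D5:**
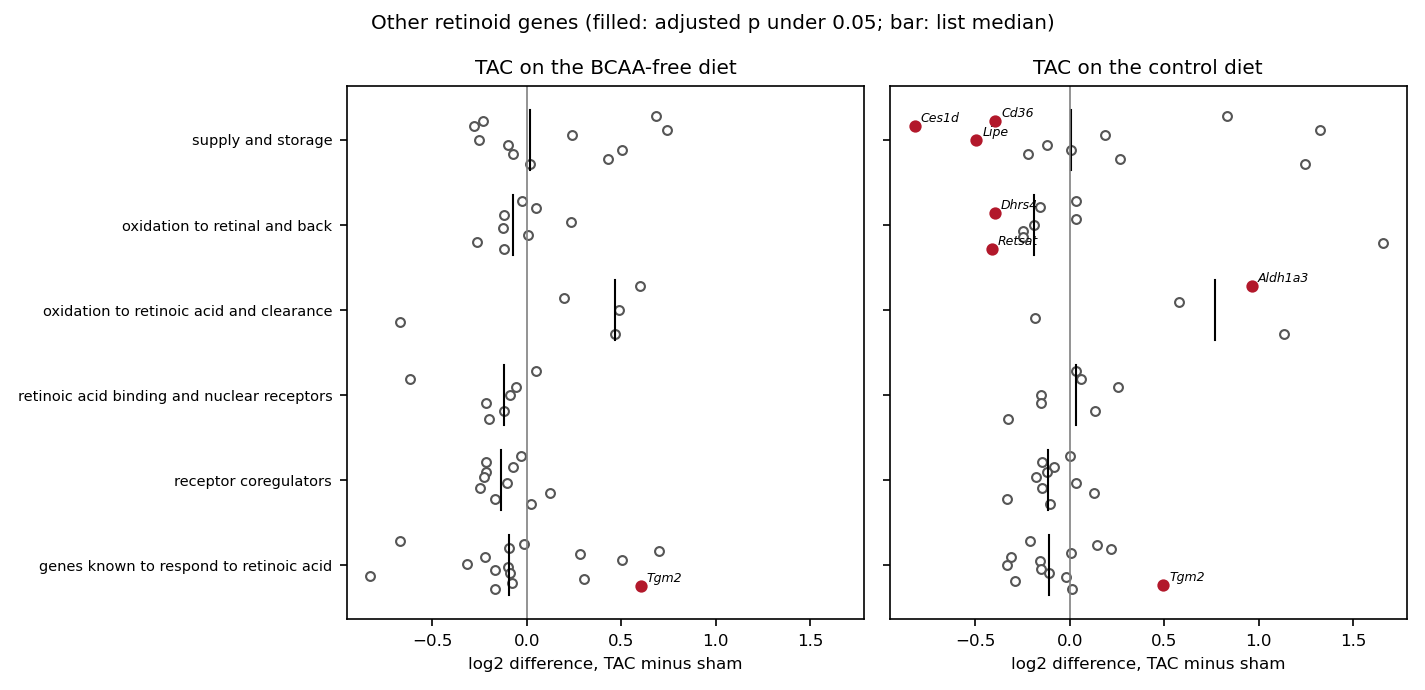
Log2 differences, TAC minus sham, of the tested genes of each retinoid list (points) on the BCAA-free diet (left) and the control diet (right), with list medians as bars. Filled and named points passed an adjusted p of 0.05: Tgm2 on the left, and Ces1d, Lipe, Cd36, Dhrs4, Retsat, Aldh1a3 and Tgm2 on the right.

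By diet, none of the listed genes passed limma's threshold. Here too the counts at an unadjusted p under 0.05 carry no share of all genes, and nothing is read from them. In sham hearts 0 of 48 were called, with 13 at an unadjusted p under 0.05 and 2 genes, Cyp26a1 and Fabp5, called by both edgeR and DESeq2. Fabp5, whose protein carries fatty acids and retinoic acid, had a limma log2 difference of -0.32 ± 0.08 (adjusted p = 0.0539). The smallest p was that of Cyp26a1, a relative of Cyp26b1, with a log2 difference of 1.49 ± 0.36 (limma, adjusted p = 0.0521). It had 14, 27 and 17 reads in BCAA-free sham libraries, against 4, 2 and 4 reads in control sham libraries.

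In TAC hearts 0 of 56 were called by limma and edgeR, with 17 at an unadjusted p under 0.05. DESeq2 called 8 there: Cd36, Ces1d, Lipe, Lpl and Pnpla2, which are 5 of the 11 supply and storage genes tested, and Cyp1b1, Retsat and Tbx5. The share of all genes called by DESeq2 is not set beside this count, so nothing is read from it. The smallest limma p was that of Retsat, with a log2 difference of 0.42 ± 0.10 (adjusted p = 0.0566). Cd36 had a limma log2 difference of 0.33 ± 0.09 (adjusted p = 0.0951). For the difference of the TAC responses 0 of 51 were called by limma, edgeR or DESeq2, with 7 at an unadjusted p under 0.05.

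The genes with profiles most like that of Cyp26b1 were sought over all libraries. Likeness was the root mean square difference between log2(CPM + 0.1) profiles centred at 0 over all 12 libraries. It was taken among 12309 genes with a mean of at least 1 CPM and values in every library. Genes without a symbol, and predicted genes with a symbol of Gm and digits or ending in Rik, were left out. The profile of Cyp26b1 itself has a root mean square of 1.10. The nearest were Ctla4 at 0.725, Retnla at 0.726, Fam222a at 0.764, Cecr2 at 0.764 and Map3k13 at 0.767. Cecr2, a chromatin remodelling gene, had 7.56, 9.84 and 16.3 CPM in BCAA-free TAC libraries, against 18.5, 16.9 and 13.9 CPM in BCAA-free sham libraries. Ctla4, an inhibitory receptor gene of T cells, averaged 1.77 CPM in BCAA-free TAC and 3.34 CPM in BCAA-free sham libraries, and 1.60 CPM in control TAC and 2.77 CPM in control sham libraries. These genes were chosen for their likeness over these same libraries, so their values describe the choice and add no second observation.

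The BCAA-free TAC libraries differed among themselves in several of these genes at once. Replicate 3 had the highest Cyp26b1 (15.3 CPM) and the lowest Aldh1a2 (3.02 CPM), Rara (13.7 CPM) and Rbp4 (1.67 CPM) of the 3. In each of these 4 genes, named after their values were seen, that library lay nearest to the BCAA-free sham libraries. Other genes had another order. Aldh1a1 was lowest in replicate 1, at 19.4 CPM against 19.6 CPM in replicate 3. Aldh1a3, at 2.75 CPM, and Cyp1b1, at 12.6 CPM, were highest in replicate 3, farthest from the sham libraries. With 3 libraries no relation among these genes was tested.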

How the data were processed

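Poly(A) RNA was sequenced from 12 heart libraries. Per the submitters' processing notes, tools named are Trimmomatic 0.36, STAR 2.5.2b, Subread 1.5.2 and DESeq2, with the build GRCm38 (mm10). The 4 deposited tables hold, per comparison, normalised signal (reads of a gene divided by a library's size factor, by the authors), the authors' log2 fold change and their p-value. Neither library preparation nor strand is stated.

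From the steps of these values, whole reads were recovered (100% whole within 0.001) and scaled to CPM. Genes the tables do not list for a library add nothing to its marker sums. The test was limma 3.58.1 with a trend on log2(value + 4), within each table, over genes whose mean value reached 10, Benjamini-Hochberg adjusted over all genes, threshold 0.05. Alternatives were edgeR 4.0.16 and DESeq2 1.42.0 on recovered reads, pseudocounts 1 and 16, no filter, quantile normalization, a replicate block and leaving out libraries. The limma fit was tested on simulated data. All 9 genes passed the filter in every comparison. One further listed gene is not reported here and is left out of the lists. The genes and lists were chosen with earlier results of these data known. Named beyond the 9 are listed genes past the threshold, or the smallest p where a list has none, and the 5 genes most like Cyp26b1. A few further genes (Fabp5, Lpl, Pnpla2, Tbx5, Cyp1b1, Ces1f, Fabp4, Alb, Ttr, Muc16, Wt1, Upk1b, and by diet Retsat, Cd36, Ces1d and Lipe) were named after their values were seen. Of 16514 identifiers, 16480 matched GENCODE M21.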

Additional observations from a re-analysis of the deposited data

How the results depend on the processing

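The comparisons are limited by 3 libraries a group, by bulk tissue and by the few reads of Stra6 and Cyp26a1. Leaving out each library in turn gave 106 to 1199 genes and 0 to 4 of the 9 genes called in TAC on the BCAA-free diet, 68 to 1020 and 0 to 1 by diet in sham hearts, 138 to 1044 by diet in TAC hearts, 300 to 659 in TAC on the control diet, and 2 to 15 for the difference of TAC responses. Single-library omission turned the sign of uncalled genes, with ranges of -0.46 to 0.37 (Stra6) and -0.17 to 0.041 (Dhrs3) in TAC on the BCAA-free diet. By diet in sham hearts they were -0.043 to 0.10 (Dhrs3), -0.19 to 0.0053 (Rara) and -0.21 to 0.014 (Rarb). By diet in TAC hearts they were -0.11 to 0.029 (Rara), -0.082 to 0.047 (Rarb), -0.75 to 0.52 (Rbp4, positive without control TAC replicate 3), -0.067 to 0.12 (Rdh10) and -1.0 to 0.32 (Stra6). For the difference of TAC responses they were -0.36 to 0.76 (Aldh1a2), -0.051 to 0.14 (Rara), -0.040 to 0.19 (Rarb) and -0.36 to 0.94 (Stra6). Cyp26b1, described without a test, also turned sign by diet in sham and TAC hearts, and ran from -0.58 to 0.72 for the difference of TAC responses.

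DESeq2 on recovered reads called 1145 genes and 3 of the 9 in TAC on the BCAA-free diet (Aldh1a2, Rbp4 and Aldh1a1), 812 genes by diet in sham hearts, 1188 by diet in TAC hearts, 1539 in TAC on the control diet and 108 for the difference of TAC responses. Stra6 turned to 0.10 in edgeR and 0.068 in DESeq2 in TAC on the BCAA-free diet. For the difference of TAC responses, pseudocount 1 and quantile normalization each called 4 genes. Without control TAC replicates 2 and 3, where the lone library is assumed to vary like the other groups, 0 genes were called by diet in TAC hearts (1889 at an unadjusted p under 0.05) and 1 for the difference of TAC responses. There Rbp4 turned to 0.31, Stra6 to 0.032 and Rarb to 0.0097 by diet in TAC hearts, and Aldh1a2 to -1.19 and Rara to -0.11 in the difference. The causes were not tested.

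The labels tie the replicate numbers to nothing shared, so whether they pair the samples is not known. Correlations of same-numbered deviations from group means ran from -0.11 to 0.32. They were not set against those of differently numbered libraries, so they do not decide it. With the replicate block, 525 genes and 2 of the 9 were called in TAC on the BCAA-free diet (Cyp26b1 with an adjusted p of 0.00964 by limma), 713 genes and 2 of 8 by diet in sham hearts (Aldh1a2, 0.0359), 1275 genes and 1 of 8 by diet in TAC hearts (Aldh1a2, 0.0234), and 3 genes for the difference of TAC responses.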
